A study of Mus musculus with 27 samples.

Results

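The miR-17 to miR-92a and miR-106b to miR-25 clusters are a pair of related miRNA genes, each of which makes several mature miRNAs from a single long transcript. Of the 844 mature miRNAs named in the series, 10 from these clusters were followed. They were chosen by name and not by their levels, although earlier results of these data were known. From the first cluster they were miR-17-5p, miR-18a-5p, miR-19b-3p, miR-20a-5p and miR-92a-3p. From the second they were miR-106b-5p, miR-106b-3p, miR-93-5p, miR-25-3p and miR-25-5p. Small RNA had been sequenced in 27 libraries from C57BL/6 mice. They covered tissue of the suprachiasmatic nucleus (SCN, the brain's circadian clock), hypothalamus and cortex (2 libraries each), and an SCN series of 11 libraries taken 4 h apart, the first at ZT2 and the last at ZT42 (ZT, zeitgeber time). They also covered 3 kinds of SCN neuron, named AVP, VIP and CCK (2 libraries each), and SCN sampled at CT18 (circadian time 18 h) as CTRL or LP (2 libraries each). LP is not explained in the labels, and the series text names a response to light as a question. No group carries a stated allele or drug, age and sex are not given in the sources used here, and the labels do not say how the neurons were collected. Nor do they say whether replicates came from separate animals, so p-values measure only the spread between these libraries, which may be technical.

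A miRNA binds its target messenger RNAs mainly through its seed, the bases near its 5′ end, and lowers their translation and stability. The miR-17 to miR-92a cluster is known as a driver of proliferation and of neural progenitor expansion, and the miR-106b to miR-25 cluster is its paralogue and lies inside Mcm7, a gene for a subunit of the helicase that opens DNA for replication. Each hairpin precursor gives a 5p and a 3p arm, of which usually only 1 is kept in quantity, so a cluster's mature miRNAs can differ in level although they share a transcript.

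The mature sequences are shown because the 10 members fall into 6 seeds, by which the results below are ordered. All 10 matched a RefSeq entry (GRCm38.p6). Sequences run 5′ to 3′, and capitals mark the seed (bases 2 to 8).
miR-17-5p: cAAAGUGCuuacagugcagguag
miR-20a-5p: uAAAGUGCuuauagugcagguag
miR-106b-5p: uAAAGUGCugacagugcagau
miR-93-5p: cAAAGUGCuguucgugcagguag
miR-18a-5p: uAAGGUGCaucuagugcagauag
miR-19b-3p: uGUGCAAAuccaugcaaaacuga
miR-92a-3p: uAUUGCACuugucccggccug
miR-25-3p: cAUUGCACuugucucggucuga
miR-106b-3p: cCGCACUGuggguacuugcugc
miR-25-5p: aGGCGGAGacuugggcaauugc
The first 4 share the seed AAAGUGC across both clusters, and miR-92a-3p and miR-25-3p share AUUGCAC. Counted from the 5′ end, miR-17-5p and miR-20a-5p differ by C1U and C12U, and miR-92a-3p and miR-25-3p by U1C, C14U and C18U over 21 bases. How the authors assigned reads between such near copies is not given in the sources used here, so the split between them is uncertain.

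In the mouse genome (GRCm38, GENCODE M21) Mir17, Mir18, Mir19a, Mir20a, Mir19b-1 and Mir92-1 lie within 836 bases of chromosome 14 (115043671 to 115044506, plus strand), in an exon of the long non-coding RNA Mir17hg. Mir106b, Mir93 and Mir25 lie within 498 bases of chromosome 5 (138165321 to 138165818, minus strand) inside Mcm7. Mir106b is intronic in 2 of the 2 Mcm7 transcripts that span it, and Mir93 and Mir25 are intronic in 2 of 3 and exonic in 1. miR-92a-3p and miR-19b-3p are each made from 2 genes, since a copy of both lies in the miR-106a to miR-363 cluster of chromosome X, so their reads cannot be assigned to the chromosome 14 cluster alone. The hairpins of Mir106b and Mir25 are shown because both of their arms are members, with each mature arm in capitals.
Mir106b: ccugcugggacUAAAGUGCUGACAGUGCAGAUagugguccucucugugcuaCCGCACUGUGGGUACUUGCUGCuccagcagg
Mir25: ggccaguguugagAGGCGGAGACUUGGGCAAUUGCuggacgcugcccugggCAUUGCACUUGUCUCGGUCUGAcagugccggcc

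Levels are given in CPM, reads as counts per 1e6 miRNA reads of a library. Libraries held 469808 to 5133920 reads. A floor of 3 reads stood for 0.837 to 1.54 CPM in the tissue libraries, 1.07 to 6.39 in the neuron libraries, 1.02 to 1.7 at CT18 and 0.585 to 1.15 along the time course. Floors and intervals cover counting error only, and replicates of every group that had them lay farther apart than counting error: chi-square divided by its degrees of freedom was lowest in CCK neurons (13.8) and highest in VIP neurons (554). The tissue, neuron, time-course and CT18 libraries were modelled separately and never tested against each other. Small-RNA libraries capture different miRNAs with different efficiency, so an order of abundance among members is that of reads, and ratios of 2 miRNAs are read only between libraries.

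Across tissues, the clusters did not move as units. miR-92a-3p was higher in the SCN than in hypothalamus and cortex. The levels of miR-20a-5p, miR-17-5p, miR-19b-3p, miR-106b-5p and miR-93-5p were lower, and miR-106b-3p passed the test in neither comparison. Of those with lower levels, all but miR-93-5p reached the minimum for a test through hypothalamus and cortex alone (miR-20a-5p also in SCN replicate 2). For them the levels are described, and their p-values are not read as support for a direction. Summed over the 10 members, levels were 846.2 ± 24.4 CPM in the SCN, 772.8 ± 59.7 in hypothalamus and 570.9 ± 18.2 in cortex (SD, n = 2 each). miR-92a-3p made up 73.8% to 76.2% of that sum in the SCN, 45.8% to 47.7% in hypothalamus and 40.8% to 42.2% in cortex.

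miR-92a-3p, the member with most reads in each of the 27 libraries, stood at 658.1 and 612.0 CPM in the SCN, 334.4 and 389.0 in hypothalamus, and 235.5 and 237.9 in cortex. The 3 tissues did not overlap. With limma on log2 values, the SCN level was 1.76-fold that of hypothalamus (log2 fold change 0.82, SE 0.13, adjusted p = 0.00047) and 2.68-fold that of cortex (1.42, adjusted p = 7.3e-06). Hypothalamus was 1.53-fold above cortex (0.61, adjusted p = 0.0035), a call that was lost with median-ratio scaling (0.19, adjusted p = 0.26) and with quantile normalization (0.11, adjusted p = 0.51). In bulk tissue, fewer cells of a type and less RNA per cell cannot be told apart.

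The seed AAAGUGC, known for targeting inhibitors of the cell cycle such as Cdkn1a, went the other way. miR-20a-5p stood at 8.4 and 10 CPM in the SCN, 42.9 and 42.8 in hypothalamus and 33.7 and 41.6 in cortex. The SCN libraries lay below all 4 others, 4.66-fold below hypothalamus (log2 fold change -2.21 with an SE of 0.25, limma adjusted p = 4.4e-05) and 4.09-fold below cortex (-2.02, adjusted p = 4.8e-05). miR-17-5p, its neighbour in the chromosome 14 cluster, measured 6.2 and 8.3 CPM in the SCN against 20.1 and 25.6 in hypothalamus and 22.5 and 25.1 in cortex. It was 3.15-fold lower than in hypothalamus (-1.65, limma adjusted p = 0.0013) and 3.28-fold lower than in cortex (-1.71, adjusted p = 0.00076). miR-17-5p reached the minimum level for a test through hypothalamus and cortex alone, and miR-20a-5p did so but for SCN replicate 2. The p-values of both are therefore not read as support.

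The miRNAs of the Mcm7 cluster with this seed were lower too. miR-106b-5p was at 4.4 and 3.9 CPM in the SCN, 24.9 and 22.9 in hypothalamus and 24.1 and 20.5 in cortex. The SCN values rest on 10 and 14 reads, with exact Poisson 95% intervals of 2.14 to 8.19 and 2.14 to 6.56 CPM, and both values lie under those of the other tissues. The level was 5.76-fold below hypothalamus (-2.5 on the log2 scale with an SE of 0.33, limma adjusted p = 0.00013) and 5.37-fold below cortex (-2.4, adjusted p = 1e-04). As with miR-17-5p, the minimum level was reached through hypothalamus and cortex alone, and these p-values are not read as support. miR-93-5p, with the most reads among the 4 of this seed in tissue, stood at 45.8 and 68.9 CPM in the SCN, 120.1 and 139.2 in hypothalamus and 103.4 and 105.8 in cortex. It was 2.26-fold lower than in hypothalamus (-1.2, limma adjusted p = 7e-04) and 1.82-fold lower than in cortex (-0.9, adjusted p = 0.0031). Summed, the 4 miRNAs with this seed reached 78.0 ± 18.6 CPM in the SCN, 219 ± 15.9 in hypothalamus and 188 ± 6.58 in cortex (SD, n = 2 each).

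miR-19b-3p was at 4.4 and 3.9 CPM in the SCN, 36.3 and 18.4 in hypothalamus and 16.2 and 18.4 in cortex. It was 6.59-fold lower than in hypothalamus (log2 fold change -2.61, limma adjusted p = 0.00038) and 4.17-fold lower than in cortex (-2.03, adjusted p = 0.0012). Here too the minimum level was reached through hypothalamus and cortex alone, so these p-values are not read as support. The hypothalamus replicates themselves lay far apart. miR-18a-5p was near the floor everywhere, with at most 2 reads in any tissue library (0 to 0.9 CPM), and was not tested.

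For the remaining products of the Mcm7 cluster the differences were smaller. miR-106b-3p, the opposite arm of the miR-106b-5p hairpin, measured 48.5 and 45.7 CPM in the SCN, 42.9 and 53.6 in hypothalamus and 35.2 and 40.5 in cortex. Its difference was -0.03 on the log2 scale from hypothalamus (95% interval -0.48 to 0.43, limma adjusted p = 0.91) and 0.32 from cortex (-0.14 to 0.77, adjusted p = 0.17), and each sign changed under another scaling. miR-25-3p stood at 85.5 and 73.1 CPM in the SCN, 106.9 and 121.7 in hypothalamus and 85.6 and 93.5 in cortex. It was 1.44-fold lower in the SCN than in hypothalamus (-0.53, limma adjusted p = 0.018), and the call was lost with median-ratio scaling (-0.27, adjusted p = 0.15), without SCN replicate 2 (adjusted p = 0.073) and without hypothalamus replicate 2 (adjusted p = 0.12). Against cortex it did not pass (-0.18, limma adjusted p = 0.34), though it did under quantile normalization (-0.47, adjusted p = 0.029). miR-25-5p had 2.2 and 3.0 CPM in the SCN and 0.5 to 1.5 in the other tissues, too few reads to be tested.

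**Figure D1:**
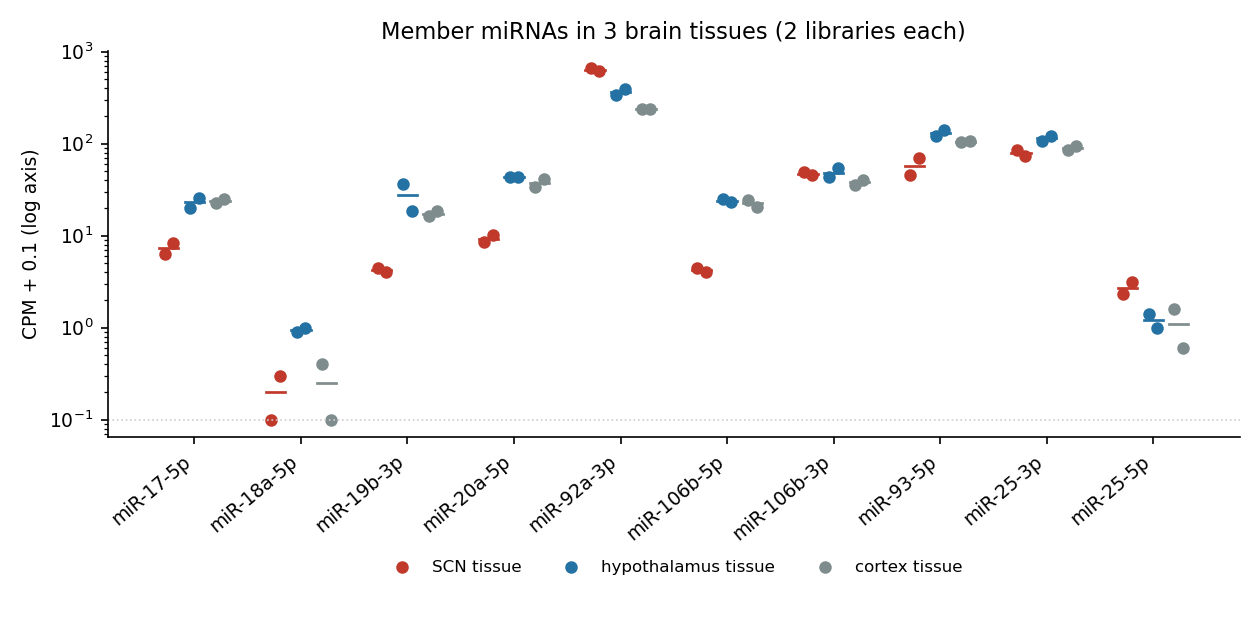
Levels of the 10 member miRNAs in SCN, hypothalamus and cortex tissue, as CPM + 0.1 on a log axis; points are libraries (2 per tissue), short lines are means, and the dotted line marks 0 reads. The SCN points lie highest for miR-92a-3p (612.0 and 658.1 CPM) and lowest for miR-20a-5p (8.4 and 10 CPM) and the other members with its seed.

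Of the 10 members, 8 were tested in tissue, and 1 was higher and 6 lower in the SCN than in hypothalamus, with 7 not overlapping. Among all 378 miRNAs tested, 70.9% passed in that comparison, 28.0% higher and 42.9% lower, and 87.3% did not overlap. Against cortex 1 member was higher and 5 lower, with all 8 not overlapping, where 80.2% of all tested miRNAs passed, 41.3% higher and 38.9% lower, and 90.2% did not overlap. Between hypothalamus and cortex 1 member was higher and 0 lower, with 5 not overlapping, and the other 7 had limma adjusted p from 0.094 to 0.87. There 58.2% of all miRNAs passed, 41.8% higher and 16.4% lower, and 83.9% did not overlap. A passing difference was thus common between these tissues. miR-17-5p, miR-19b-3p and miR-106b-5p, and miR-20a-5p but for 1 SCN library, reached the minimum level of 10 CPM through hypothalamus and cortex alone. Neither the counts nor the p-values of these miRNAs are therefore read as support for a direction.

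**Figure D2:**
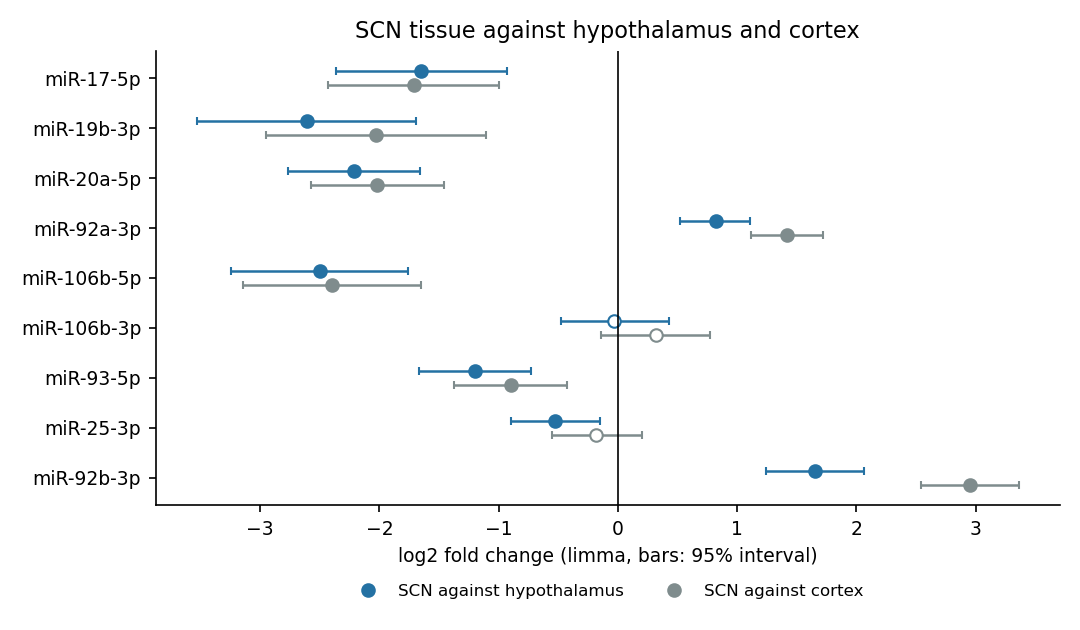
Log2 fold change of SCN tissue against hypothalamus (blue) and against cortex (grey) for the 8 member miRNAs tested and miR-92b-3p; bars are 95% intervals from limma, and filled points passed an adjusted p of 0.05. miR-92a-3p and miR-92b-3p lie right of 0, and the 4 miRNAs with the seed AAAGUGC and miR-19b-3p lie left of it.

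Markers of other cell types differed between the same tissues. All 5 vascular miRNAs listed (miR-126, miR-143 and miR-145 arms) were detected, with a summed level of 3910.0 to 3932.6 CPM in the SCN, 11100.1 to 11818.3 in hypothalamus and 11012.8 to 11549.5 in cortex. The 3 oligodendrocyte miRNAs summed to 568.8 to 782.2 CPM in the SCN, 2649.8 to 3166.7 in hypothalamus and 1176.6 to 1624.7 in cortex. The 6 microglia and leukocyte miRNAs reached 1894.5 to 2076.6, 2483.5 to 2691.8 and 3297.5 to 3539.1 CPM in that order, with 1 of them at 0 in both SCN libraries. Of the 3 tested, 1 (miR-150-5p) was higher and 2 lower in the SCN than in either other tissue. The sums of the 4 erythrocyte miRNAs overlapped between the SCN (486.2 to 583.1 CPM), hypothalamus (548.5 to 888.2) and cortex (512.5 to 642.6), although 3 of the 4 were lower and 1 higher in the SCN than in either other tissue. The 6 choroid plexus and ciliated cell miRNAs summed to 8623.4 to 8890.4 CPM in the SCN (1 of them at 0), 7211.9 to 7424.4 in hypothalamus and 1175 to 1336.3 in cortex (1 at 0). A single miRNA made up most of the SCN sum, reaching 7909.8 CPM. Of the 4 tested, 3 were higher and 1 lower in the SCN than in hypothalamus, and all 4 were higher than in cortex. The 6 neuronal miRNAs were present in all 3 tissues, at 36176.2 to 40887.5 CPM in the SCN, 55466.2 to 58206.2 in hypothalamus and 157517 to 163677 in cortex. The vascular, oligodendrocyte, microglia and neuronal sums were thus lowest in the SCN, like the AAAGUGC miRNAs. The choroid plexus and ciliated cell sum, but not every miRNA in it, had the order of miR-92a-3p. What part these lists had in the results was not tested.

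Ratios taken within a library do not depend on scaling, although miR-92a-3p may come in part from its second gene. There were 78.3 and 61.2 reads of miR-92a-3p per read of miR-20a-5p in the SCN, 7.79 and 9.09 in hypothalamus, and 6.99 and 5.72 in cortex. The groups did not overlap, and the ratio in the SCN was 8.16-fold that in hypothalamus and 10.9-fold that in cortex. The exact two-sided permutation p was 0.333 for both, the smallest that 2 against 2 libraries allow. The ratio of miR-92a-3p to miR-17-5p was also highest in the SCN, at 106 and 73.7 in the SCN, 16.6 and 15.2 in hypothalamus and 10.5 and 9.48 in cortex. miR-20a-5p and miR-17-5p stayed closer to each other, with ratios of 1.35 and 1.2 in the SCN, 2.13 and 1.67 in hypothalamus and 1.5 and 1.66 in cortex.

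Inside the Mcm7 cluster the arms of a single hairpin differed in ratio. In the SCN there were 11 and 11.7 reads of miR-106b-3p per read of miR-106b-5p, against 1.72 and 2.34 in hypothalamus and 1.46 and 1.98 in cortex. That is 5.55-fold more than in hypothalamus and 6.56-fold more than in cortex, without overlap (exact permutation p = 0.333 each). The ratio of miR-25-3p to miR-106b-5p was 19.4 and 18.7 in the SCN, 4.29 and 5.31 in hypothalamus and 3.55 and 4.56 in cortex. The ratio of miR-25-3p to miR-93-5p was 0.89 and 0.874 in hypothalamus, 0.828 and 0.884 in cortex, and 1.87 and 1.06 in the SCN, where the replicates lay far apart. In the time course the arm ratio of miR-106b ranged from 1.42 to 7.55 (median 3.49), and at CT18 it was 1.23 and 0.875 in CTRL and 1.15 and 1.55 in LP. All 15 of these libraries, which come from other experiments, lay below the SCN tissue libraries in this ratio. The time-course range spanned the hypothalamus and cortex ratios, with a median above them, and both CTRL ratios lay below them. An arm ratio as high as in the SCN tissue libraries was thus not seen in the other SCN experiments. The 6 neuron libraries gave no ratio, since they had 0 reads of miR-106b-5p.

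**Figure D3:**
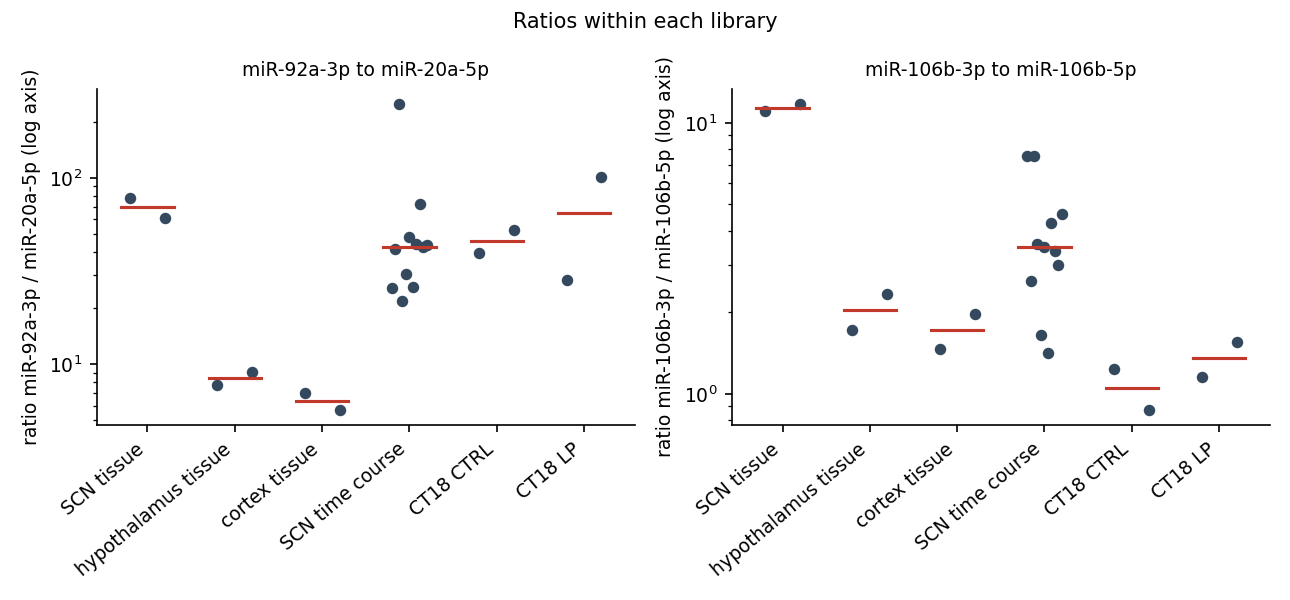
Ratio of miR-92a-3p to miR-20a-5p (left) and of miR-106b-3p to miR-106b-5p (right) in each tissue, time-course and CT18 library, on log axes; points are libraries and red lines are group medians. For miR-92a-3p to miR-20a-5p, every SCN group lies above hypothalamus and cortex, while for the miR-106b arms the SCN tissue libraries (11 and 11.7) stand above the other libraries plotted.

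Among relatives of the members, 1 had a high level. miR-92b-3p, which has the seed AUUGCAC and differs from miR-92a-3p by U10C and G21C over 21 bases, comes from its own gene outside both clusters. It averaged 2560 CPM in the SCN, 806 in hypothalamus and 330 in cortex, and was 3.18-fold higher in the SCN than in hypothalamus (limma log2 fold change 1.65, adjusted p = 4.4e-05) and 7.75-fold higher than in cortex (2.95, adjusted p = 5.4e-07). The ratio of miR-92a-3p to miR-92b-3p was lower in the SCN (0.22 and 0.287) than in hypothalamus (0.404 and 0.497) and cortex (0.824 and 0.634). How reads were assigned between these near copies is not given either. The split between them is thus uncertain in every library, and whether miR-92a-3p levels hold reads of miR-92b-3p was not tested. The miRNAs made only by the miR-106a to miR-363 cluster on chromosome X had few reads. Of 10 listed 5 were found, they summed to 0 to 9.4 CPM in a library, and none reached the level needed for a test. How much of miR-92a-3p and miR-19b-3p came from this cluster is unknown. Likewise 7 of 8 other strands of the clusters were found, such as miR-17-3p and miR-93-3p, and 0 could be tested in tissue.

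In the neuron libraries the seed AAAGUGC was nearly absent and miR-92a-3p was not. Absence was common there, since a neuron library listed 215 to 312 miRNAs and a tissue library 582 to 634. The low level is thus not read as particular to this seed. The 4 miRNAs with the seed AAAGUGC summed to 1.8 and 20.9 CPM in AVP neurons, 0.6 and 0 in VIP neurons, and 0 and 2.0 in CCK neurons. miR-106b-5p and miR-18a-5p had 0 reads in all 6 libraries, where 3 reads would be 1.07 to 6.39 CPM. miR-20a-5p had 17 reads in AVP replicate 2 (18.7 CPM) and at most 1 read in each of the other 5, and miR-93-5p had at most 1 read in any of the 6. miR-92a-3p, in contrast, stood at 772.3 and 346.3 CPM in AVP neurons, 278.0 and 274.7 in VIP neurons and 575.3 and 427.2 in CCK neurons. The same libraries held 3.3 to 176.5 CPM of the 5 vascular miRNAs and 0 to 158.6 CPM of the 6 microglia and leukocyte miRNAs. The 4 erythrocyte miRNAs summed to 2106.8 to 2164.0 CPM in AVP neurons, 943.1 to 1169.7 in VIP neurons and 980.1 to 1014.7 in CCK neurons (3, 1 and 3 of them at 0). Nearly all of it was miR-486-5p, at 2106.8 to 2164.0, 930.3 to 1152.7 and 980.1 to 1014.7 CPM. miR-451a averaged 14.6 CPM in VIP neurons and had 0 reads in AVP and CCK neurons. In AVP, VIP and CCK neurons the 3 oligodendrocyte miRNAs summed to 45.1 to 134.3, 756.1 to 1249.1 and 630.6 to 741.5 CPM (1 at 0 in each). The 6 choroid plexus and ciliated cell miRNAs summed to 83.8 to 290.0, 7564.0 to 9453.0 and 1499.9 to 1914.4 CPM in the same order (4, 4 and 3 at 0). In VIP neurons a single one of these miRNAs reached 9453.0 CPM. The part of these lists in the results was not tested. The 6 neuronal miRNAs summed to 3018.8 to 4122.7 CPM in AVP neurons (2 of them at 0), 13344.8 to 18074.1 in VIP neurons and 10698.3 to 12384.4 in CCK neurons. Neuron libraries were not tested against tissue.

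Between neuron types 5 members were tested, and miR-25-5p alone passed with all libraries in the fit. miR-25-5p, the arm of the Mir25 hairpin that is scarce elsewhere, was at 51.1 and 43.1 CPM in CCK neurons (24 and 21 reads, exact Poisson 95% intervals of 32.8 to 76.1 and 26.7 to 65.9 CPM) and had 0 reads in all 4 AVP and VIP libraries. Its mean in CCK neurons (47.1 CPM) was 22.7-fold the level of 3 reads over the AVP libraries and 87.9-fold that over the VIP libraries. These folds leave out the error of the CCK level and are not lower bounds. The limma adjusted p was 0.0052 against AVP and 0.004 against VIP neurons. The first call was lost under quantile normalization (adjusted p = 0.067) and without AVP replicate 1 (adjusted p = 0.05), and miR-25-5p could not be tested with either CCK library left out. In CCK neurons there were 0.961 and 2.34 reads of miR-25-5p per read of miR-25-3p, whereas in SCN tissue there were 0.0257 and 0.041. miR-25-5p reached the minimum level through CCK neurons alone, so its p-values are not read as support.

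The main arm, miR-25-3p, had 199.6 and 318.7 CPM in AVP neurons, 107.5 and 7.1 in VIP neurons and 53.2 and 18.4 in CCK neurons. AVP neurons were above the others in each library, but VIP replicates were 15.1-fold apart (302 and 20 reads) and no difference passed (AVP against VIP 3.18, limma adjusted p = 0.18). Without VIP replicate 1 the difference from VIP neurons passed (5.13, adjusted p = 0.041). miR-106b-3p stood at 70.8 and 65.0 CPM in AVP neurons, 0 and 16.5 in VIP neurons and 36.2 and 20.5 in CCK neurons. Again AVP neurons were highest in each library, and the difference from VIP neurons passed only without VIP replicate 2 (limma adjusted p = 0.17 with all libraries, 0.024 without it), as did that of VIP from CCK neurons (adjusted p = 0.31 and 0.036). miR-19b-3p appeared in single replicates, at 29.5 CPM in VIP replicate 1 (83 reads) and 31.9 in CCK replicate 1 (15 reads), with 0 or 1 read in the other 4 libraries.

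miR-92a-3p passed in no comparison of neuron types (limma adjusted p = 0.21 for AVP against VIP, 0.28 for VIP against CCK, and 1 for AVP against CCK), except for AVP against VIP without AVP replicate 2 (1.48, adjusted p = 0.047). Its relative miR-92b-3p was 2.84-fold higher in AVP than in CCK neurons (1.5, adjusted p = 0.013) and 3.28-fold higher in VIP than in CCK neurons (1.72, adjusted p = 0.0082), and both calls were lost with either CCK library left out. The ratio of miR-92a-3p to miR-92b-3p was highest in CCK neurons (0.192 and 0.178), lower in AVP neurons (0.0881 and 0.0526) and lowest in VIP neurons (0.0306 and 0.0317), with no overlap (exact permutation p = 0.333 for each pair). Of the 5 members tested, 0 passed and 4 did not overlap between AVP and VIP neurons, where 32.8% of all 305 miRNAs passed and 64.6% did not overlap. Between AVP and CCK neurons 1 passed, lower in AVP, and 3 did not overlap, against 16.7% of all miRNAs passing (2.62% higher, 14.1% lower) and 58.0% not overlapping. Between VIP and CCK neurons 1 passed, lower in VIP, and 3 did not overlap, against 29.8% passing (8.20% higher, 21.6% lower) and 62.6% not overlapping. The member that passed was miR-25-5p in both, and since it reached the minimum level through CCK neurons alone, the counts are not read as support.

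**Figure D4:**
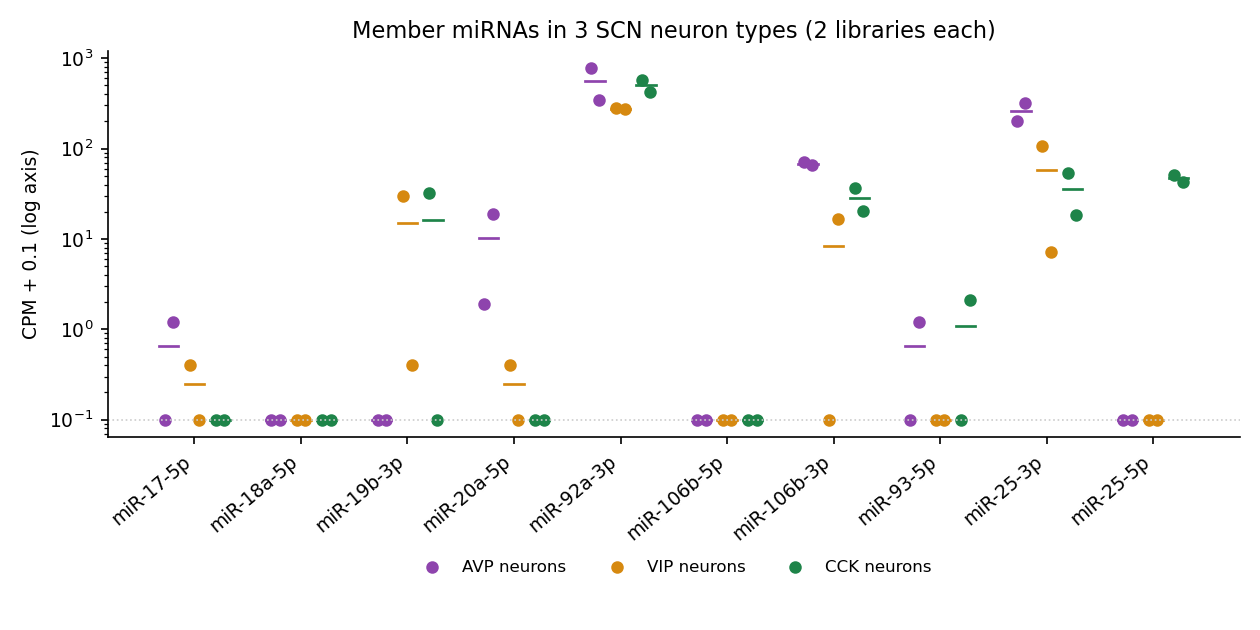
Levels of the 10 member miRNAs in the 3 kinds of SCN neuron (AVP, VIP, CCK), as CPM + 0.1 on a log axis; points are libraries (2 per type), short lines are means, and the dotted line marks 0 reads. miR-92a-3p lies between 274.7 and 772.3 CPM in all 6 libraries, miR-25-5p has reads in CCK neurons only, and miR-106b-5p and miR-18a-5p have no reads.

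Along the SCN time course no member followed a 24 h rhythm that passed the test. miR-92a-3p ranged from 242.0 CPM at ZT22 to 540.0 at ZT10 with a median of 347.7, and its fitted amplitude was 0.23 on the log2 scale (limma adjusted p = 0.95). miR-20a-5p ranged from 1.4 CPM at ZT18 (5 reads) to 21.1 at ZT10 with a median of 8.1, and its amplitude of 0.8, the largest of the 6 members tested, did not pass either (adjusted p = 0.95). Of the 10 members 6 were tested, and for all 6 the limma adjusted p was 0.95 to 0.99. Over all 357 miRNAs tested 0 passed (0%), with 6 at an unadjusted p under 0.05. The untested members had medians of 6.1 CPM (miR-17-5p), 5.3 (miR-19b-3p) and 2.2 (miR-25-5p), and miR-18a-5p had 0 reads in all 11 libraries.

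Among the 6 members tested, the steepest slopes over the time course belonged to the Mcm7 cluster, and none passed. miR-25-3p measured 123.3 CPM at ZT2, 109.6 at ZT6, 67.2 at ZT10 and 67.0 at ZT14, and 30.9 to 42.2 at the 7 later times. The earliest 4 libraries were all above the rest. Slopes were fitted over the 11 libraries together with the 24 h cosine and sine terms. That of miR-25-3p was -0.99 on the log2 scale per 24 h (SE 0.28, limma adjusted p = 0.19, unadjusted 0.0028). miR-106b-3p had a slope of -0.8 (SE 0.31, adjusted p = 0.23), with its highest level of 47.7 CPM at ZT6 and its lowest of 12.2 at ZT26. miR-93-5p, from the same transcript, had a slope of 0.12 (adjusted p = 0.89), with a lowest level of 15.9 CPM, a median of 31.2 and a highest of 46.9. No slope passed among the 357 miRNAs (0%), and with 1 library per time the order of times cannot be told apart from any other difference between libraries.

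**Figure D5:**
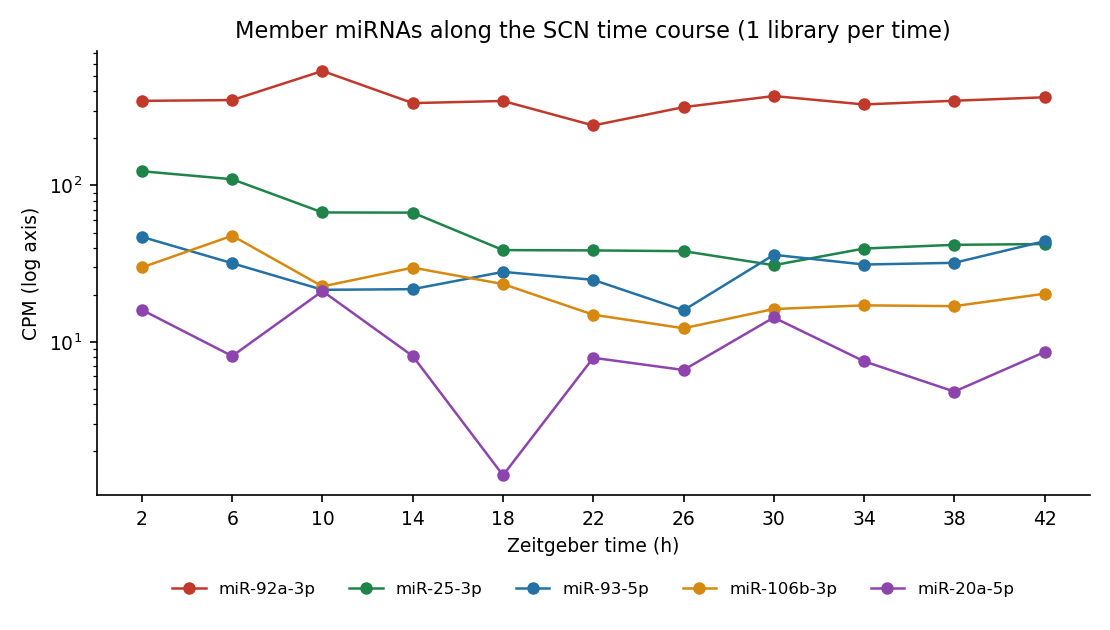
Levels of 5 member miRNAs in the SCN time course in CPM (log axis) against zeitgeber time in hours; each point is 1 library. miR-25-3p goes from 123.3 CPM at ZT2 to between 30.9 and 42.2 from ZT18 on, while miR-92a-3p stays between 242.0 and 540.0.

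At CT18 no member passed between LP and CTRL, and neither did any of the 317 miRNAs tested with limma (0%, with 1 at an unadjusted p under 0.05). miR-25-3p stood at 203.3 and 205.6 CPM in CTRL and 233.9 and 212.8 in LP (log2 fold change 0.13, 95% interval -0.38 to 0.63). miR-106b-3p stood at 9.0 and 7.7 CPM in CTRL and 16.9 and 13.2 in LP (0.84, interval -0.25 to 1.93). Among the 7 tested members these 2 did not overlap, like 18.6% of all miRNAs tested, but miR-106b-3p reached the minimum level through LP alone, so nothing is read from its difference. miR-92a-3p measured 576.1 and 674.4 CPM in CTRL and 524.5 and 718.4 in LP (-0.02, interval -0.6 to 0.56), with LP replicates farther apart than the groups. miR-20a-5p to miR-17-5p was 1.24 and 1.79 in CTRL and 0.916 and 0.747 in LP, without overlap (exact permutation p = 0.333). miR-17-5p (7.2 to 20.3 CPM), miR-19b-3p (5.6 to 18.1), miR-20a-5p (7.1 to 18.6) and miR-93-5p (51.4 to 102.5) overlapped between the groups, all 7 tested members had an adjusted p of 0.99, and miR-18a-5p, miR-106b-5p and miR-25-5p were not tested.

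Across all 27 libraries the miRNAs whose log2 levels followed a member most closely were found by Pearson's r among 310 miRNAs, members left out, as a description over libraries that share tissue kind, depth and experiment. For miR-20a-5p they were miR-344b-3p and miR-339-5p (r = 0.89 each) and miR-10a-5p (0.85). For miR-92a-3p they were miR-421-3p (0.74), miR-130b-5p (0.73) and miR-224-5p (0.67), and for miR-25-3p they were miR-1843a-5p (0.77), miR-379-3p (0.75) and miR-103-3p (0.72).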

How the data were processed

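The members and lists were chosen with earlier results of these data known. The authors deposited 1 signal value for each mature miRNA, and the values themselves show reads scaled to 10000000 per library and rounded down. Bowtie and the build GRCm38 (mm10) are named per the submitters' processing notes, without versions. CPM is the value divided by 10, and reads were recovered from the step that 1 read is worth. limma 3.58.1 (limma-trend, R 4.3.3) was fitted on log2(value + 1) over miRNAs with a value of at least 100 in at least 2 libraries of a model (at least 3 in the time course), with Benjamini-Hochberg adjustment over all tested miRNAs, a threshold of 0.05 and two-sided tests. Rhythm was tested with 24 h cosine and sine terms together, and slopes come from a fit with a linear term added to these. Folds were computed from mean CPM, and log2 changes with their errors come from limma. Ratios within a library were compared by exact permutation, and those of miR-92a-3p to miR-92b-3p and miR-93-5p to miR-106b-5p were added after seeing the data. On simulated data the SCN against hypothalamus fit recovered 85% of 20 miRNAs changed 2-fold and 100% of 19 changed 4-fold, with 0 false calls among 322 (361 miRNAs). Named miRNAs are the 10 members, the lists fixed with them, and the 3 miRNAs with the highest r to miR-20a-5p, miR-92a-3p and miR-25-3p.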

Additional observations from a re-analysis of the deposited data

How the results depend on the processing

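Of 584 member results under other settings, 539 kept direction and side of the threshold, 7 lost their call, 5 gained a call and 33 changed sign. None of the 33 had a call in either fit. The 584 include amplitudes of the 24 h rhythm, which are never negative and so could not change sign. Sign changes, given on the log2 scale and as ranges where a library was left out, were for SCN against hypothalamus, miR-106b-3p at 0.23 (median-ratio), 0.16 (quantile) and -0.19 to 0.13 with a library left out, and for SCN against cortex miR-106b-3p at -0.09 (quantile). For hypothalamus against cortex, median-ratio scaling gave -0.23 (miR-20a-5p), -0.32 (miR-106b-5p), -0.08 (miR-106b-3p), -0.12 (miR-93-5p) and -0.07 (miR-25-3p). Quantile normalization gave -0.05 (miR-19b-3p), -0.45 (miR-20a-5p), -0.49 (miR-106b-5p), -0.25 (miR-106b-3p), -0.12 (miR-93-5p) and -0.03 (miR-25-3p), and leaving out a library gave -0.24 to 0.11 (miR-17-5p) and -0.01 to 0.22 (miR-106b-5p). In neurons, VIP against CCK gave 0.64 (median-ratio), 1.79 (quantile) and -2.12 to 1.78 (a library left out) for miR-25-3p and -3.22 to 4.05 for miR-19b-3p, and AVP against CCK gave -0.52 to 0.64 for miR-92a-3p. At CT18 miR-93-5p was -0.07 (median-ratio) and -0.48 to 0.51 with a library left out, where miR-19b-3p was -0.6 to 1.07, miR-92a-3p -0.25 to 0.2 and miR-20a-5p -0.94 to 0.44. The cause was not tested.

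Counts of all miRNAs that moved by over 1.5 times were 186 against 303 for SCN against cortex with a minimum of 1000, 33 against 51 for AVP against CCK with that minimum (0 to 69 with a library left out, 0 without either CCK library), and 56 (quantile) and 46 (replicate block) against 91 for VIP against CCK (1 to 92 with a library left out). LP against CTRL gave 0 to 21 calls with a library left out, 21 without LP replicate 2. The minimum of 1000 also left fewer miRNAs to test, 218 against 378 in tissue and 183 against 305 in neurons. The replicate block gave 267 against 268, 304 against 303 and 225 against 220 calls in tissue. It gave 81 against 100 and 43 against 51 for AVP against VIP and CCK, and 0 at CT18. Same-numbered libraries are not paired by the labels, and their deviations correlated at -0.09 to 0.25. Calls higher and lower were 158 and 62 for hypothalamus against cortex, but 96 and 104 with median-ratio scaling and 79 and 93 with quantile normalization. They were 55 and 45 for AVP against VIP but 34 and 62 (median-ratio), 8 and 43 for AVP against CCK but 15 and 43 or 15 and 21 (quantile), and 25 and 66 for VIP against CCK but 38 and 32 or 30 and 26. SCN against hypothalamus went from 106 and 162 to 128 and 134. The mean log2 median-ratio scaling factor of the first group minus that of the second was -0.26, 0.16 and 0.42 in the tissue comparisons. It was 0.65, -0.17 and -0.82 in the neuron comparisons and 0.08 at CT18. With a pseudocount of 10 the log2 ratio differences moved to 1.75 (from 1.97) and 2.0 (from 2.22) for miR-25-3p to miR-106b-5p in the SCN against hypothalamus and cortex, and to 2.49 (from 2.71) for miR-106b-3p to miR-106b-5p against cortex. Planned count-based tests (edgeR and DESeq2) were not run, because the deposited values are scaled and rounded down.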

Other observations

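SCN was sampled in 3 experiments whose levels differed, and since each may be its own batch no test was made between them. miR-25-3p averaged 79.3 CPM in SCN tissue, 57.9 over the time course and 204 in the CT18 CTRL libraries. miR-106b-3p, also from the Mcm7 cluster, averaged 47.1, 22.8 and 8.35 CPM in that order, so that the CT18 CTRL libraries were highest for miR-25-3p and lowest for miR-106b-3p. Their common neighbour miR-93-5p was at 57.4, 30.4 and 72.0 CPM. The ratio of miR-25-3p to miR-93-5p was 1.87 and 1.06 in SCN tissue and 2.87 and 2.82 in CT18 CTRL, and it ranged from 0.858 to 3.45 over the time course. miR-92a-3p was nearly level between SCN tissue (635 CPM) and CT18 CTRL (625), and lower in the time course (354). The time-course libraries (242.0 to 540.0 CPM) overlapped hypothalamus tissue (334.4 and 389.0). The difference between SCN and hypothalamus given above is thus that of the tissue libraries. The summed vascular miRNAs were 3910.0 to 3932.6 CPM in SCN tissue, 3235.6 to 6331.4 over the time course and 993.9 to 1174.5 in CT18 CTRL.

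The ratio of miR-93-5p to miR-106b-5p, which share a seed and a transcript, was 10.4 and 17.7 in SCN tissue, 4.82 and 6.08 in hypothalamus and 4.29 and 5.16 in cortex, without overlap between the SCN and the other tissues (exact permutation p = 0.333). It was 1.9 to 9.03 over the time course and 9.71 and 8.3 in CT18 CTRL, below SCN tissue in each library. The time-course range spanned the hypothalamus and cortex ratios.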
